A study of Rattus norvegicus with 9 samples.

Results

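Transcripts of 36 genes of glycolysis, pyruvate handling and the pentose phosphate pathway were followed in the RBL-2H3 line, which was derived from a rat basophilic leukemia and serves as a model of mast cells (MCs). The genes were taken by symbol from a list that runs from glucose uptake to lactate export. Of the 36 genes, 35 had values among the 18006 genes with values, and Pdk4, a kinase that switches off pyruvate dehydrogenase, had none in any sample. RNA was sequenced in 9 samples, 3 in each of 3 groups. The DNP samples were sensitized by their labels with 50 ng/ml IgE for 12 h and then stimulated with 100 ng/ml of the antigen DNP-HSA for 4 h. The PF samples received the same sensitization and stimulation and, before it, PF for 1 h. What PF is was not spelled out in the sources used here. A second label field gives PF replicates 1, 2 and 3 stimulation times of 4, 5 and 6 h, so PF and time cannot be told apart in 2 of the 3 PF samples. The Ctrl samples are labelled as untreated in one field, while the treatment protocol attached to every sample describes IgE and antigen, so whether Ctrl cells carried IgE is not settled. Nothing in the labels says that replicates came from separate cultures, and the p-values then measure only the spread between these samples, which may be technical.

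The expression values are read as FPKM, a fragment count corrected for transcript length and for the total of mapped fragments, so levels of different genes can be set side by side per length. They summed to between 573023 and 630069 FPKM per sample, with the 3 PF samples highest. The depth in reads is unknown, and a relative depth from the steps between low values of 7 genes ranged from 0.984 to 1.02. All 9 samples correlated best with a sample of their own group. The labelled tissue is peripheral blood, and the values are those of an MC line. The receptor subunits Fcer1a and Ms4a2 stood between 410 and 503 FPKM and between 417 and 486 FPKM, the basophil protease Mcpt8 was low at 4.78 to 20.4 FPKM, and Tpsab1 had no value. Of the other cell types' markers that were looked up, the T cell gene Cd3e alone exceeded 1.10 FPKM, at 6.74 to 9.52 FPKM, with Cd3d at 0 in 8 of the 9 samples.

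Glycolysis splits glucose into pyruvate in 2 stretches. In the hexose phase glucose is phosphorylated, rearranged and cleaved at the cost of ATP, and phosphofructokinase (Pfkl, Pfkm, Pfkp) is the committed, regulated step. In the triose phase, from Tpi1 and Gapdh to Pkm, ATP and NADH are recovered. The bifunctional enzymes Pfkfb2, Pfkfb3 and Pfkfb4 make and break fructose-2,6-bisphosphate, the strongest activator of phosphofructokinase. Pyruvate is either reduced to lactate by Ldha and Ldhb and exported by Slc16a1 and Slc16a3, or taken by pyruvate dehydrogenase (Pdha1, Pdhb, Dlat) into mitochondrial oxidation, which the Pdk kinases block. The pentose phosphate pathway draws on the same sugars for NADPH and ribose, with Pgd in its oxidative arm and Tkt and Taldo1 in the arm that leads back to glycolysis. Antigen crosslinking of FcεRI is known to raise glucose use in MCs.

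The promoters of 6 genes that the results return to are shown. On the deposited values Tpi1, Ldha, Tkt and Taldo1 rose in all 3 comparisons and Pfkfb3 fell in both PF comparisons. Gapdh is the reference gene of the study's RT-PCR. Ldha and Tkt lost a call in alternative fits, as given below. Each is the window of 250 bases before the start site that RefSeq's table for the GRCr8 assembly uses for the gene, and for Tkt, Pfkfb3 and Gapdh that site lies inside the gene's full RefSeq span. GRCr8 is not the rn6 build that the submitters' processing notes name for the expression values. Each window is printed 5′ to 3′. Capitals mark the letters ACGTG or, on the other strand, CACGT, the core of the hypoxia response element that is well known from glycolytic promoters, and the run CACGTG holds both and is also an E-box.
Tpi1, chr4:159305089-159305338, minus strand: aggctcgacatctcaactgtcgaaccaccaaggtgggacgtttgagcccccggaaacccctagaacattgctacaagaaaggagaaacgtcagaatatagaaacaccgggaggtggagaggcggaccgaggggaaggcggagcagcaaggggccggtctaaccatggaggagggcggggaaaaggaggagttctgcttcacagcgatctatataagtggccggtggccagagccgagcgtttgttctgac
Ldha, chr1:106507842-106508091, plus strand: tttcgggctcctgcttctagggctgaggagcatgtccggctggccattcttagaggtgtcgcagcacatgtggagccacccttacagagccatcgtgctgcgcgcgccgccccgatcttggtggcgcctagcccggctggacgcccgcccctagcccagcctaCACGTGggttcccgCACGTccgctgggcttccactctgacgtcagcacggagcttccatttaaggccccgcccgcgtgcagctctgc
Tkt, chr16:5729982-5730231, plus strand: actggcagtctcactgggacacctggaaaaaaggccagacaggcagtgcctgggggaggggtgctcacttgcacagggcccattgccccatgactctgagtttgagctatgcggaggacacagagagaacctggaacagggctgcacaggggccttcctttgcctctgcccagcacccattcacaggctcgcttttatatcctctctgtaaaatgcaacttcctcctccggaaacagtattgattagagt
Taldo1, chr1:205922946-205923195, plus strand: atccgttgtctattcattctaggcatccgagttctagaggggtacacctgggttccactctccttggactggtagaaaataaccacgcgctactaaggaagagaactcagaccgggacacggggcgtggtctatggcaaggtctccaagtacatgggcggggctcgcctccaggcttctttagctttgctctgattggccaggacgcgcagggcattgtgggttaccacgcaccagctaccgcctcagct
Pfkfb3, chr17:71944683-71944932, plus strand: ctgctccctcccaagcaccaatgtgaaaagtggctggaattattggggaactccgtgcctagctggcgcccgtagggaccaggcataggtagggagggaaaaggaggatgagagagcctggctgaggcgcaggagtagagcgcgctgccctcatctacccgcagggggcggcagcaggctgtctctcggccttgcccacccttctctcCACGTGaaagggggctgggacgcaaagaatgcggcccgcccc
Gapdh, chr4:159652468-159652717, minus strand: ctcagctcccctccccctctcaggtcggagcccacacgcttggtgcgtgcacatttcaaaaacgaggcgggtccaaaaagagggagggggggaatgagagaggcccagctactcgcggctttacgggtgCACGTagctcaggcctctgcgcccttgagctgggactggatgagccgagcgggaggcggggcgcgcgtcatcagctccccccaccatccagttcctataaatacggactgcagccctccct
The ACGTG form was found 3 times in the Ldha window, counting both strands, 2 times in that of Pfkfb3 and 1 time in that of Gapdh. It was found 0 times in those of Tpi1, Tkt and Taldo1, and the GCGTG form, which the Ldha, Taldo1 and Gapdh windows hold, was not counted.

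RefSeq windows were found for 34 of the 36 genes, 38 windows in all, of the 33469 in the table, and Slc2a3 and Pgk1 had no entry. Of the members' windows, 42.1% held the ACGTG form of the core, against 16.6% of all windows. The E-box CACGTG, whose letters contain ACGTG, was in 13.2% against 5.59%, and the GC box GGGCGG in 60.5% against 30.5%. The AP-1 site TGACTCA, the letters bound by c-Fos with Jun, was in 7.89% against 4.05%, in the windows of Eno2, Pdhb and Slc16a3. The cAMP response element TGACGTCA was in the Ldha window alone (2.63% against 1.59%), and the EGR site GCGTGGGCG in the Pfkp window alone (2.63% against 0.478%). The median GC content was 60.2% in the members' windows and 51.2% in all windows, and its part in these shares was not tested. A match describes letters only, and whether any of these sites bears on the changes below was not tested.

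Many of these transcripts were abundant, with Gapdh far above the rest. Of the 35 genes, 13 stood above 100 FPKM in every sample, 25 above 10 FPKM, and Hk3 and Slc16a3 below 1 FPKM in every sample. The top 5 genes held 72.2% of the members' summed FPKM over the 9 samples and Gapdh alone 34.7%. Gapdh measured 2913, 3310 and 3074 FPKM in the Ctrl samples, 3166, 3062 and 3185 FPKM in the DNP samples, and 3927, 3795 and 3723 FPKM in the PF samples. The Ctrl and DNP values overlapped and all 3 PF values lay above both.
The members together summed to 9072 ± 268 FPKM (SD, n = 3) in Ctrl, 9258 ± 111 FPKM in DNP and 10604 ± 201 FPKM in PF samples. Relative to each sample's own total these were 1.55%, 1.60% and 1.71%. Ctrl and DNP sums overlapped, and the 3 PF sums lay above the other 6. As shares, the groups did not overlap, at 1.52% to 1.58% in Ctrl, 1.60% to 1.61% in DNP and 1.69% to 1.74% in PF samples.

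**Figure D1:**
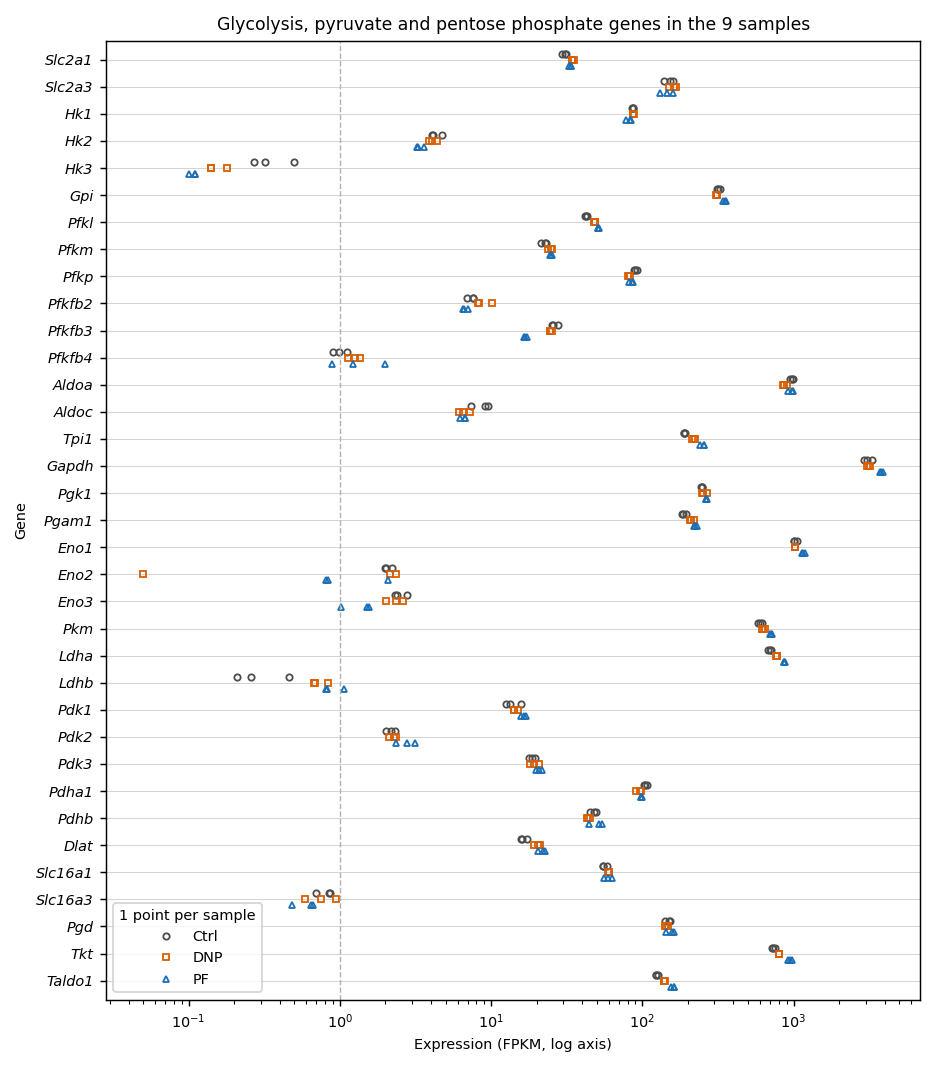
Expression of the 35 genes with values in FPKM on a log axis, 1 row a gene in pathway order and 1 point a sample, with circles for Ctrl, squares for DNP and triangles for PF; the dashed line marks 1 FPKM. Most rows hold 9 points close together, the 3 PF triangles of Pfkfb3 (16.5 to 17.3 FPKM) sit apart below the other 6 points, and 1 DNP square of Eno2 lies at 0.05 FPKM.

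Isoenzyme use was strongly uneven in most sets, less so for Pdk and phosphofructokinase, and the form with the largest share was the same in every sample. Some small shares differed between groups. The Hk2 share was 4.46% to 5.12% in Ctrl and 3.72% to 4.41% in PF samples. Those of Aldoc and Eno3 were also lower in all PF than in all Ctrl samples, and that of Ldhb was lowest in the Ctrl samples. Shifts in the Pfk and Pfkfb sets are given below. Hk1 held between 94.5% and 96.2% of the summed hexokinase FPKM, Aldoa at least 99.0% of aldolase, Eno1 at least 99.5% of enolase and Ldha at least 99.88% of lactate dehydrogenase, in every sample. The transporter Slc2a3 made up 79.9% to 84.3% of the Slc2a1 and Slc2a3 sum, and Slc16a1 98.5% to 99.2% of the Slc16a1 and Slc16a3 sum. The Pdk sum was split between Pdk3 (53.9%, 53.6% and 52.0% in Ctrl, DNP and PF) and Pdk1 (39.9%, 40.2% and 41.1%), with Pdk2 at 6.24%, 6.22% and 6.88% and the samples of the groups overlapping for Pdk1 and Pdk3.

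Differences were tested by limma after a log2(FPKM + 1) transformation. Each comparison used its own 6 samples and the genes that reached 1 FPKM in 3 or more of them. Benjamini-Hochberg adjustment ran over the whole table, and a gene is said to rise or fall at an adjusted p of at most 0.05. On this scale the change of weakly expressed genes is understated. Of the 35 genes, 32 passed the filter in each comparison, and Hk3, Ldhb and Slc16a3 did not. An exact permutation test of 3 samples against 3 cannot go below 0.1 (two-sided), so single genes rest on limma's shared estimate of the spread. The 3 comparisons share samples in pairs, and their values are given side by side without a test between them.

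In DNP against Ctrl samples, 8 of the 32 genes rose and 4 fell, all by small steps. The genes that rose were Slc2a1, Pfkl, Tpi1, Pgam1, Ldha, Dlat, Tkt and Taldo1, with log2 fold changes from 0.12 (Tkt) to 0.29 (Dlat). In bulk RNA, fewer cells that carry a transcript and less of it per cell cannot be told apart. Those that fell were Pfkp, Aldoa, Aldoc and Pdha1, from -0.12 (Pdha1) to -0.34 (Aldoc). Over all 10392 genes tested, 14.7% rose and 14.4% fell, against 25.0% and 12.5% of these genes. The groups did not overlap for 19 of the 32 genes, and for 45.8% of all genes tested. The median log2 fold change was 0.05 for the 32 genes and -0.0081 for all genes. Of the 8 genes that rose, 7 kept the call in all 13 alternative fits, which include leaving out each sample in turn. Tkt and the 4 genes that fell each lost it in at least 1.

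In PF against DNP samples, 10 genes rose and 4 fell. Those that rose were Gpi, Aldoa, Tpi1, Gapdh, Eno1, Pkm, Ldha, Pdk1, Tkt and Taldo1, with log2 fold changes from 0.14 to 0.28. Hk2, Pfkfb2, Pfkfb3 and Eno3 fell, by 0.23 to 0.53 on the log2 scale. Of all 10329 genes tested, 18.1% rose and 30.7% fell, against 31.2% and 12.5% of these genes, and the groups did not overlap for 18 of the 32 genes and for 57.6% of all genes. The median log2 fold change was 0.08 for the 32 genes and -0.04 for all genes. Of the 10 risers 9 were abundant genes, and abundant genes as a class were higher in the PF samples. Among the 934 tested genes with a mean of at least 100 FPKM, 57.0% rose and 10.2% fell, and of the 13 genes of these pathways in that class 9 rose and 0 fell. Their median log2 fold change was 0.16, against 0.13 for the 934. Whether the abundant pathway genes rose more often than other abundant genes was not tested. Pfkfb2, Pfkfb3, Hk2 and Eno3 are outside the class, as are 19 of the 32 genes. The share of the 32 genes that fell, 12.5%, was below the 30.7% of all genes.

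In PF against Ctrl samples, 16 genes rose and 4 fell. Over all 10361 genes tested 23.1% rose and 34.6% fell, against 50.0% and 12.5% of these genes, and the groups did not overlap for 23 of the 32 genes and for 64.8% of all genes. Among the abundant genes 52.0% rose and 13.2% fell, with 10 rising and 0 falling among the 13 of these pathways. The median log2 fold change was 0.24 for these 13 genes, against 0.13 for the 934. The same class in DNP against Ctrl showed 16.8% rising and 14.9% falling, with 5 and 1 of the 13. The medians there were 0.08 for the 13 genes and -0.0058 for the 934. On the deposited values Tpi1, Ldha, Tkt and Taldo1, all of them abundant genes, rose in all 3 comparisons. Ldha lost its call in PF against DNP, and Tkt in DNP against Ctrl, in at least 1 alternative fit. Slc2a3, Hk1, Pfkfb4, Eno2, Pdk2, Pdhb, Slc16a1 and Pgd passed the test in none on the deposited values, which does not show that they were unchanged.

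**Figure D2:**
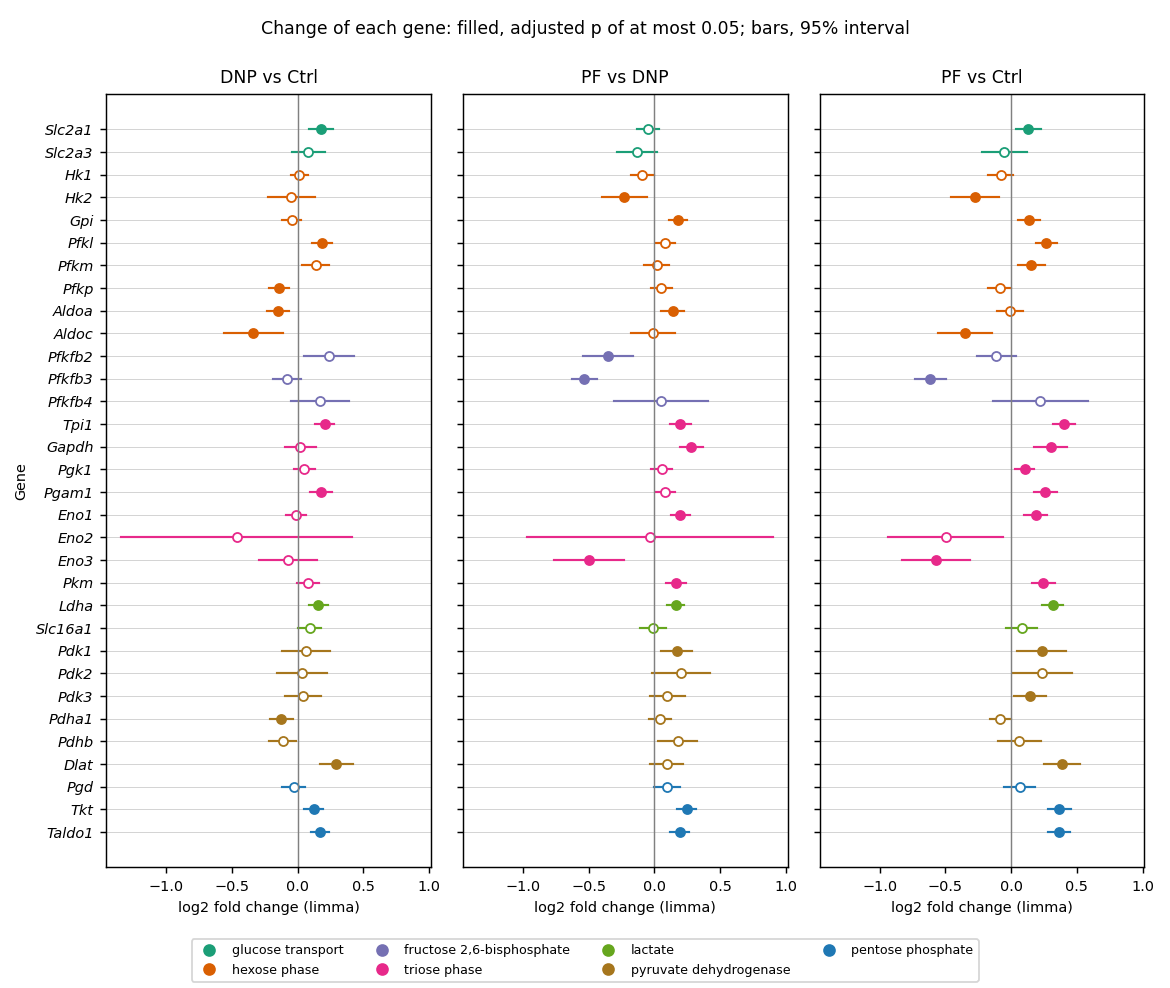
log2 fold change (limma, x axis) of each of the 32 tested genes in DNP vs Ctrl, PF vs DNP and PF vs Ctrl, 1 row a gene, with colour by role, bars for the 95% interval and filled points for an adjusted p of at most 0.05. Pfkfb3 lies farthest below 0 among the filled points of both PF comparisons (-0.53 and -0.62), and Tpi1, Ldha, Tkt and Taldo1 are filled above 0 in all 3 panels.

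Of the 2 glucose transporters, Slc2a1 (GLUT1), the common transporter of growing cells, measured 30.9, 31.3 and 29.6 FPKM in Ctrl, 35.5, 34.0 and 34.5 FPKM in DNP, and 33.9, 33.8 and 32.9 FPKM in PF samples. The DNP and PF values lay above all Ctrl values. The rise in DNP was 0.18 ± 0.039 (log2 fold change ± SE, limma adjusted p = 0.0122) and that in PF against Ctrl 0.13 ± 0.042 (limma adjusted p = 0.0265), the latter lost when each sample was scaled to the mean of the samples' sums (adjusted p = 0.336) or without Ctrl replicate 1 or 3 or PF replicate 1 or 2 (limma adjusted p of 0.0503 to 0.0892). PF and DNP differed by -0.05 (95% interval -0.13 to 0.0381). Slc2a3 (GLUT3), the transporter with the higher level here, ran from 140 to 159 FPKM in Ctrl, from 150 to 166 FPKM in DNP and from 131 to 160 FPKM in PF samples, with all groups overlapping. It passed in no comparison, but in PF against DNP it fell when scaled to the mean of the sums (-0.23, limma adjusted p = 0.0123) and without PF replicate 2 (-0.20, limma adjusted p = 0.022).

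The hexose phase held genes that moved both ways. Phosphofructokinase shifted in composition: the liver-type subunit Pfkl was 43.0, 42.2 and 42.0 FPKM in Ctrl and 48.1, 48.4 and 48.8 FPKM in DNP, while the platelet-type subunit Pfkp was 92.6, 89.6 and 88.0 FPKM in Ctrl and 82.7, 81.9 and 80.2 FPKM in DNP. Neither pair of groups overlapped. Pfkl rose by 0.19 ± 0.033 (limma adjusted p = 0.00432) and Pfkp fell by 0.14 ± 0.034 on the log2 scale (limma adjusted p = 0.0159), and the latter call was lost without DNP replicate 3 (limma adjusted p = 0.06). As a share of the 3 subunits' FPKM, which no scaling of a sample can move, Pfkl went from 27.3% to 27.5% in Ctrl up to 30.9% to 31.6% in DNP, and Pfkp from 57.6% to 59.0% down to 52.0% to 53.2%. Pfkm, the muscle-type subunit, was 21.4, 22.7 and 22.9 FPKM in Ctrl and 24.9, 23.8 and 25.3 FPKM in DNP and just missed the threshold (0.14 ± 0.046, limma adjusted p = 0.0539). The PF samples had nearly the DNP composition, with 31.4% to 32.5% Pfkl and 51.6% to 53.3% Pfkp, and both ranges overlapped those of DNP.

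Hexokinase, which traps glucose in the cell, was low in its inducible form. Hk2 measured 4.71, 4.04 and 4.11 FPKM in Ctrl, 3.88, 4.08 and 4.37 FPKM in DNP, and 3.22, 3.28 and 3.59 FPKM in PF samples. Ctrl and DNP overlapped and the PF values were below both. Hk2 fell in PF against DNP by 0.23 ± 0.076 on the log2 scale (limma adjusted p = 0.0335), a call lost under scaling by median ratios (adjusted p = 0.0726) and with no filter on low values (adjusted p = 0.077), and without DNP replicate 2 or 3 or PF replicate 1 or 2 (limma adjusted p of 0.0749 to 0.108). The fall against Ctrl was 0.28 ± 0.08 on the log2 scale and was lost without Ctrl replicate 1 or PF replicate 1 (limma adjusted p of 0.0568 to 0.0641). The main form Hk1 was 85.9 to 86.9 FPKM in Ctrl, 86.6 to 88.1 FPKM in DNP and 77.8 to 84.3 FPKM in PF samples, the last below the other 6, and did not pass the test (PF against DNP -0.09, limma adjusted p = 0.0705). It did pass there when scaled to the mean of the sums (-0.19, limma adjusted p = 0.00174), with all 3 groups in the fit (limma adjusted p = 0.0499) and without PF replicate 2 (limma adjusted p = 0.0476). Hk3 was at 0.27 to 0.50 FPKM in Ctrl, 0.14 to 0.18 FPKM in DNP and 0.10 to 0.11 FPKM in PF samples and was too low to test.

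Gpi, which turns phosphorylated glucose into its fructose isomer, was 312, 328 and 317 FPKM in Ctrl, 311, 305 and 310 FPKM in DNP, and 359, 351 and 341 FPKM in PF samples. It rose in PF against DNP by 0.18 ± 0.031 (limma adjusted p = 0.00124), while its DNP and Ctrl values stood close together. The aldolases, which cleave the hexose, moved down with stimulation. Aldoa was 973, 995 and 940 FPKM in Ctrl, 863, 857 and 900 FPKM in DNP, and 988, 980 and 918 FPKM in PF samples. It fell in DNP (-0.15 ± 0.037, limma adjusted p = 0.017) and was higher in PF than in DNP (0.14 ± 0.039, limma adjusted p = 0.0164), so that PF and Ctrl overlapped (-0.01, 95% interval -0.11 to 0.0879). The first call was lost without DNP replicate 1 or 2 (limma adjusted p of 0.0621 to 0.0629) and with no filter (0.0514), and the second without DNP replicate 1 or 2 or PF replicate 1 (limma adjusted p of 0.0582 to 0.066) and when scaled to the mean of the sums (0.331). The minor form Aldoc was 9.08, 7.37 and 9.51 FPKM in Ctrl, 7.24, 6.09 and 6.50 FPKM in DNP, and 6.70, 6.20 and 6.72 FPKM in PF samples, and fell by 0.34 ± 0.098 on the log2 scale in DNP and by 0.35 ± 0.091 in PF against Ctrl. Its call in DNP was lost without Ctrl replicate 1 or 3 or DNP replicate 2 or 3 (limma adjusted p of 0.0824 to 0.101). That in PF held in all 13 alternative fits but just missed a threshold of 0.01 (limma adjusted p = 0.0102).

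Of the 3 Pfkfb genes, Pfkfb3 alone fell in both PF comparisons on the deposited values. Pfkfb3, the form with the highest kinase over phosphatase activity, was 27.9, 25.7 and 25.4 FPKM in Ctrl, 24.4, 24.6 and 25.4 FPKM in DNP, and 17.3, 16.7 and 16.5 FPKM in PF samples. The highest PF value lay far below the lowest DNP value. Its mean in PF was 0.679 of that in DNP, while that of the much weaker Eno3 was 0.586. On the log2 scale the difference was -0.53 ± 0.043 from DNP (limma adjusted p = 1.7e-05) and -0.62 ± 0.052 from Ctrl (limma adjusted p = 2.35e-05). Both calls held in every alternative, and over the left-out samples the log2 fold change against DNP stayed between -0.55 and -0.52. In DNP against Ctrl Pfkfb3 did not pass (-0.08 ± 0.047, limma adjusted p = 0.222). Pfkfb2, a form controlled by phosphorylation, was 7.54, 7.61 and 6.94 FPKM in Ctrl, 8.23, 10.1 and 8.34 FPKM in DNP, and 6.54, 6.57 and 7.07 FPKM in PF samples. Its DNP values lay above all others. Pfkfb2 fell in PF against DNP (-0.35 ± 0.082, limma adjusted p = 0.00693) and did not pass in DNP against Ctrl (0.24 ± 0.083, limma adjusted p = 0.0632). The latter passed with all 3 groups in the fit (limma adjusted p = 0.0415) and was 0.15 without DNP replicate 2 (limma adjusted p = 0.166). Pfkfb4, near 1 FPKM, varied from 0.89 to 1.98 FPKM within the PF samples and passed in no comparison.
The summed FPKM of the 3 genes was 33.3 to 36.5 in Ctrl, 33.8 to 35.9 in DNP and 24.5 to 25.8 in PF samples. Within the sum the Pfkfb3 share was 75.1% to 76.3% in Ctrl, 68.6% to 72.4% in DNP and 67.0% to 68.1% in PF samples, so no 2 groups overlapped, and the Pfkfb2 share was 20.6% to 22.3%, 23.8% to 28.3% and 25.4% to 28.9%.

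**Figure D3:**
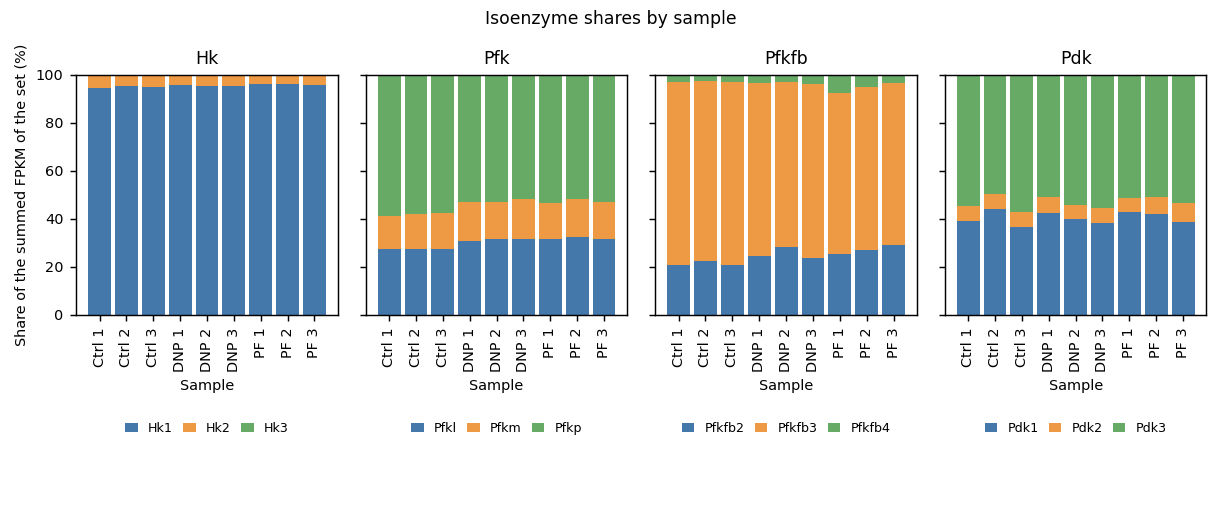
Share of the summed FPKM of each isoenzyme set (y axis, %) in each of the 9 samples for hexokinase (Hk), phosphofructokinase (Pfk), the fructose-2,6-bisphosphate enzymes (Pfkfb) and the pyruvate dehydrogenase kinases (Pdk). Hk1 fills at least 94.5% of each hexokinase bar, Pfkl takes at most 27.5% of the Ctrl bars and at least 30.9% of the others, and Pfkfb3 takes 75.1% or more of the Ctrl bars and 68.1% or less of the PF bars.

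Of the 8 tested genes of the triose phase, 2 rose and 0 fell in DNP against Ctrl, 4 rose and 1 fell in PF against DNP, and 6 rose and 1 fell in PF against Ctrl. The 6 that rose, Tpi1, Gapdh, Pgk1, Pgam1, Eno1 and Pkm, are all in the abundant class, of which 57.0% rose in PF against DNP and 52.0% in PF against Ctrl. Tpi1, which interconverts the 2 trioses, was 189, 191 and 189 FPKM in Ctrl, 218, 214 and 225 FPKM in DNP, and 254, 258 and 242 FPKM in PF samples, so that the 3 groups formed 3 separate steps. Its log2 fold change was 0.20 ± 0.031 in DNP against Ctrl (limma adjusted p = 0.00222), 0.20 ± 0.035 in PF against DNP (limma adjusted p = 0.00176) and 0.40 ± 0.036 in PF against Ctrl (limma adjusted p = 3.5e-05). These calls held in every alternative. Pgam1, which moves the phosphate within phosphoglycerate, was 183, 194 and 187 FPKM in Ctrl, 211, 207 and 218 FPKM in DNP, and 221, 231 and 224 FPKM in PF samples. It rose in DNP (0.18 ± 0.036, limma adjusted p = 0.00792), while PF against DNP missed the threshold (0.08 ± 0.033, limma adjusted p = 0.0612), although the 2 groups did not overlap. That comparison passed when scaled by median ratios (0.15, limma adjusted p = 0.00889) and without DNP replicate 3 (limma adjusted p = 0.0487).

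Eno1, the main enolase, was 1014, 1054 and 1003 FPKM in Ctrl, 1016, 1015 and 1017 FPKM in DNP, and 1154, 1197 and 1144 FPKM in PF samples. It rose in PF against DNP by 0.20 ± 0.031 (limma adjusted p = 9.05e-04) with DNP inside the Ctrl range. Pkm, pyruvate kinase, was 580, 617 and 601 FPKM in Ctrl, 619, 629 and 651 FPKM in DNP, and 722, 712 and 695 FPKM in PF samples, in 3 groups that did not overlap. Only the PF comparisons passed (0.16 ± 0.032 against DNP and 0.24 ± 0.038 against Ctrl), and the former was lost when scaled to the mean of the sums (adjusted p = 0.0914). Pgk1, the first ATP-yielding enzyme, stayed within 244 to 267 FPKM in all samples and passed only in PF against Ctrl (0.10 ± 0.032, limma adjusted p = 0.0205), a call lost without Ctrl replicate 1 or PF replicate 1 or 2 (limma adjusted p of 0.0524 to 0.0629), in limma without trend (adjusted p = 0.0656) and when scaled to the mean of the sums (adjusted p = 0.548).
The low enolases behaved differently. Eno3, the muscle enolase, was 2.76, 2.32 and 2.38 FPKM in Ctrl, 2.34, 2.02 and 2.60 FPKM in DNP, and 1.55, 1.02 and 1.51 FPKM in PF samples, and fell in PF against DNP (-0.50 ± 0.12, limma adjusted p = 0.00758) and against Ctrl (-0.57 ± 0.11, limma adjusted p = 0.00272). Eno2, the neuronal enolase, was 2.00, 2.22 and 2.01 FPKM in Ctrl, 2.36, 2.13 and 0.05 FPKM in DNP, and 0.81, 0.84 and 2.09 FPKM in PF samples. DNP replicate 3 and PF replicates 1 and 2 thus stood apart from their groups' other samples, and Eno2 passed in no comparison; without PF replicate 3 its log2 fold change in PF against Ctrl was -0.75 (limma adjusted p = 5.77e-04).

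Among the lactate genes only Ldha passed the test. Ldha, the dehydrogenase subunit that favours lactate, was 697, 680 and 710 FPKM in Ctrl, 768, 781 and 778 FPKM in DNP, and 859, 866 and 877 FPKM in PF samples, and no 2 groups overlapped. The log2 fold change was 0.16 ± 0.032 in DNP against Ctrl (limma adjusted p = 0.00774), 0.16 ± 0.029 in PF against DNP (limma adjusted p = 0.00165) and 0.32 ± 0.035 in PF against Ctrl (limma adjusted p = 1.05e-04). The PF against DNP call was lost when scaled to the mean of the sums (0.06, adjusted p = 0.103). Ldhb, the subunit that favours pyruvate, was too low to test, at 0.26, 0.46 and 0.21 FPKM in Ctrl, 0.83, 0.68 and 0.67 FPKM in DNP, and 0.82, 0.81 and 1.07 FPKM in PF samples. Every Ctrl value was below the other 6. The lactate exporter Slc16a1 (MCT1) stayed between 54.5 and 62.6 FPKM and passed in no comparison, and Slc16a3 (MCT4), the exporter of highly glycolytic cells, did not exceed 0.94 FPKM.

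At the branch into the mitochondrion, 1 of the 3 pyruvate dehydrogenase genes rose with stimulation, 1 fell and 1 did not pass. Dlat, the acetyltransferase core, was 15.7, 16.1 and 17.2 FPKM in Ctrl, 19.2, 20.4 and 21.2 FPKM in DNP, and 22.1, 20.3 and 22.6 FPKM in PF samples, with all DNP and PF values above Ctrl. It rose in DNP by 0.29 ± 0.055 (limma adjusted p = 0.00575), the largest rise among the 32 genes there, and in PF against Ctrl by 0.39 ± 0.059 (limma adjusted p = 6.41e-04). Pdha1, the catalytic alpha subunit, was 107, 103 and 103 FPKM in Ctrl and 91.3, 97.2 and 98.4 FPKM in DNP, and fell by 0.12 ± 0.039 on the log2 scale (limma adjusted p = 0.0416). Leaving out any 1 of the 6 samples ended this call (limma adjusted p of 0.0535 to 0.138), as did fitting with no filter on low values, scaling to the mean of the sums and limma without trend (adjusted p of 0.0699 to 0.0923). Pdhb, the beta subunit, was 45.0, 48.2 and 49.7 FPKM in Ctrl and 45.0, 43.0 and 43.7 FPKM in DNP and did not pass (-0.11 ± 0.045, limma adjusted p = 0.088).
Of the kinases that inhibit the complex, Pdk1 rose in PF against DNP (0.17 ± 0.052, limma adjusted p = 0.0246), from 14.1 to 15.1 FPKM in DNP to 15.7 to 17.1 FPKM in PF samples. The call was lost without DNP replicate 2 or 3 or PF replicate 1 or 2 (limma adjusted p of 0.0562 to 0.0872), with all 3 groups in the fit (0.0852) and when scaled to the mean of the sums (0.27). Pdk1 and Pdk3 also passed against Ctrl (0.23 and 0.14, limma adjusted p = 0.0382 and 0.0493). Without Ctrl replicate 1 or 3 or PF replicate 1 or 2 for Pdk1 (limma adjusted p of 0.0833 to 0.116), and without Ctrl replicate 1 or 2 or PF replicate 1 or 3 for Pdk3 (limma adjusted p of 0.101 to 0.148), they did not, nor did they when scaled to the mean of the sums (adjusted p = 0.12 and 0.383). Pdk2, at 2.02 to 3.13 FPKM, passed in no comparison.

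Of the 3 pentose phosphate genes, Tkt and Taldo1 rose in all 3 comparisons, and both are in the abundant class. Tkt, transketolase, was 717, 753 and 736 FPKM in Ctrl, 802, 801 and 798 FPKM in DNP, and 978, 948 and 920 FPKM in PF samples. Taldo1, transaldolase, was 127, 123 and 123 FPKM in Ctrl, 139, 139 and 142 FPKM in DNP, and 155, 163 and 162 FPKM in PF samples. For both genes the 3 groups did not overlap, in the order Ctrl, DNP, PF. In DNP against Ctrl, Tkt rose by 0.12 ± 0.032 (limma adjusted p = 0.0212) and Taldo1 by 0.17 ± 0.03 (limma adjusted p = 0.00413). Tkt lost this call without Ctrl replicate 1 or any 1 of the DNP samples (limma adjusted p of 0.0582 to 0.0719), with no filter (adjusted p = 0.0518) and without trend (adjusted p = 0.0609). PF against DNP gave 0.24 ± 0.033 for Tkt (limma adjusted p = 3.48e-04) and 0.19 ± 0.031 for Taldo1 (limma adjusted p = 0.00103), and PF against Ctrl 0.37 and 0.36, all kept in every alternative. Pgd, which yields NADPH and a pentose in the oxidative arm, was 141 to 152 FPKM in Ctrl, 142 to 147 FPKM in DNP and 144 to 162 FPKM in PF samples and passed in no comparison. In PF against DNP it passed when scaled by median ratios (0.16, limma adjusted p = 0.023) and without PF replicate 3 (0.14, limma adjusted p = 0.0105).

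Gapdh has a second role here, as the reference gene by which RT-PCR levels are divided. It is shown with the primers used for the rat gene, which the study's supplement lists, in lower case throughout because no part is marked.
Gapdh forward: ggcacagtcaaggctgagaatg
Gapdh reverse: atggtggtgaagacgccagta
Between Ctrl and DNP the Gapdh values overlapped (0.02, 95% interval -0.10 to 0.137, limma adjusted p = 0.803). In PF it rose by 0.28 ± 0.037 against DNP (limma adjusted p = 3.33e-04) and by 0.30 ± 0.055 against Ctrl (limma adjusted p = 0.00167), and both calls held in every alternative. The ratio of the PF to the DNP mean was 1.22. Dividing each sample by its Gapdh value therefore lowered every ratio of PF to DNP: that of Egr1, an early response transcription factor, went from 1.33 to 1.10, that of Fos from 2.31 to 1.90 and that of the cytokine gene Il4 from 0.283 to 0.234. For DNP against Ctrl the same division changed the Egr1 ratio from 46.4 to 45.9. The paper names no PF group in its RT-PCR, so the PF ratios describe the sequencing values alone. Gapdh, like several glycolytic genes, has processed pseudogenes in rodents, and how the authors' counting divided shared reads was not tested.
Among 10 other genes often used as references, 6 rose and 0 fell in PF against DNP, namely Actb, B2m, Ppia, Rplp0, Ywhaz and Tfrc, with log2 fold changes from 0.09 (B2m) to 0.27 (Rplp0). Of all genes 18.1% rose and 30.7% fell there, and of the abundant genes 57.0% and 10.2%. When scaled to the mean of the samples' sums, 4 rose and 2 (Tbp and Sdha) fell. DNP against Ctrl had 1 that rose (Tfrc) and 1 that fell (B2m).

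**Figure D4:**
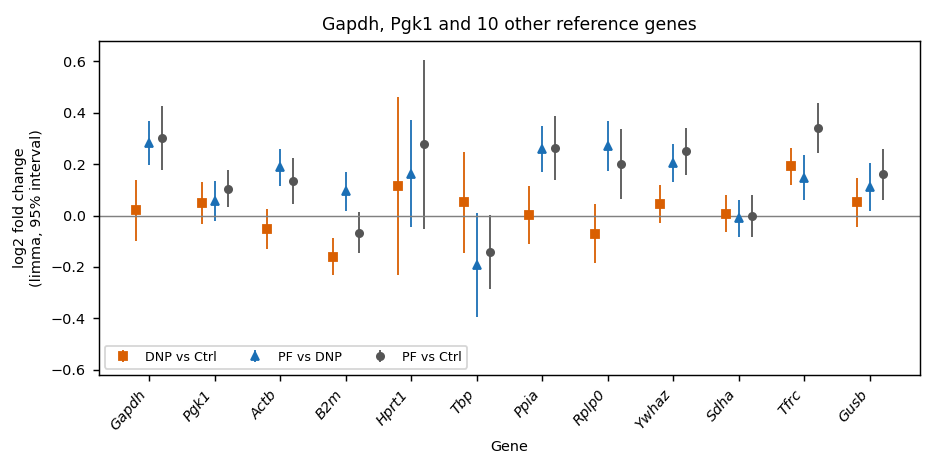
log2 fold change (limma, y axis) with its 95% interval for Gapdh, Pgk1 and 10 other reference genes, with squares for DNP vs Ctrl, triangles for PF vs DNP and circles for PF vs Ctrl. For Gapdh the square sits at 0.02 and the triangle and circle at 0.28 and 0.30, and the triangles of Actb, Ppia, Rplp0 and Ywhaz lie between 0.19 and 0.27.

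The count of genes that rose in PF samples depended on how the samples were scaled, and the 3 PF samples had the highest deposited sums. Scaling by median ratios put the median log2 fold change of all genes in PF against DNP at 0.02, the deposited values at -0.04 and scaling to the mean of the samples' sums at -0.13. Under these, in the same order, 19, 10 and 6 of the 32 genes rose and 3, 4 and 7 fell. Of all genes tested, 2758 of 10318, 1870 of 10329 and 869 of 10320 rose, and 2600, 3172 and 4302 fell. Gpi, Tpi1, Gapdh, Eno1, Tkt and Taldo1 rose under all 3 scalings, and Pfkfb2, Pfkfb3 and Eno3 fell under all 3. For the abundant genes as a class, 71.2%, 57.0% and 32.0% rose, beside 12, 9 and 6 of the 13 pathway genes in it. In that class 8.03%, 10.2% and 20.1% fell, beside 0, 0 and 1 of the 13. In PF against Ctrl, 18, 16 and 10 of the 32 genes rose and 4, 4 and 9 fell. Of all genes tested there, 3142 of 10342, 2389 of 10361 and 1575 of 10343 rose, and 3012, 3586 and 4316 fell. Pfkl, Tpi1, Gapdh, Pgam1, Eno1, Pkm, Ldha, Dlat, Tkt and Taldo1 rose and Hk2, Pfkfb3, Aldoc and Eno3 fell under all 3 scalings. Between DNP and Ctrl, 8, 8 and 9 of the 32 genes rose and 4, 4 and 3 fell. Of all genes tested there, 1550 of 10350, 1530 of 10392 and 1669 of 10407 rose, and 1461, 1501 and 1279 fell.

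**Figure D5:**
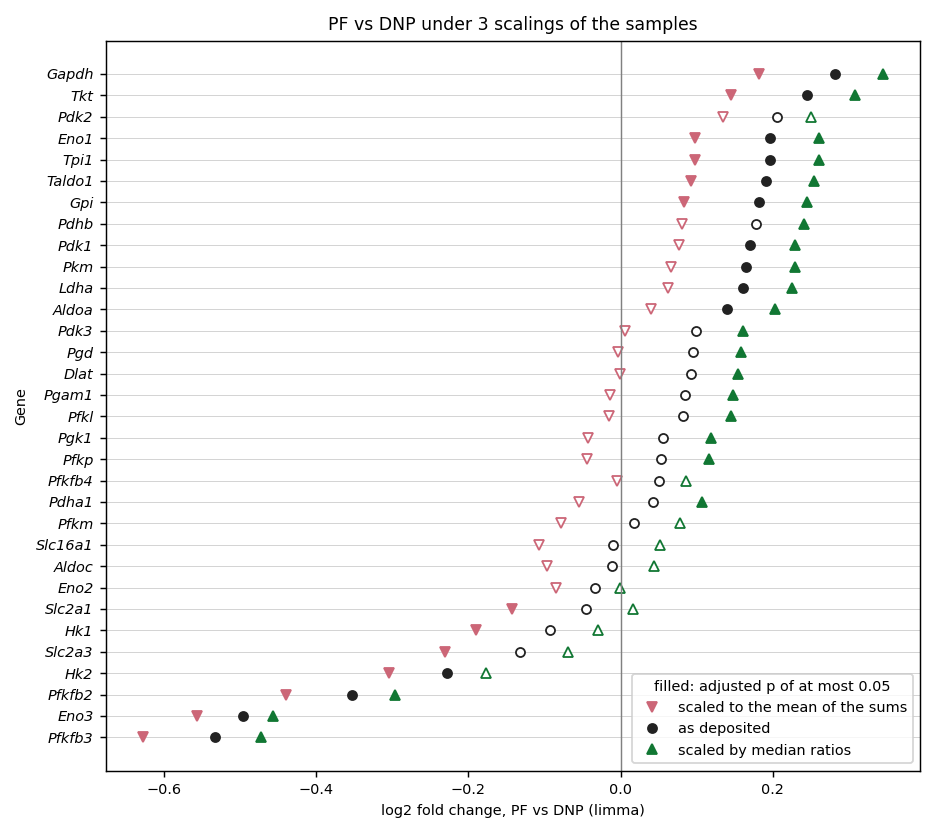
log2 fold change (limma, x axis) of the 32 tested genes in PF vs DNP, 1 row a gene, with circles for the values as deposited, upward triangles for scaling by median ratios and downward triangles for scaling to the mean of the sums, filled at an adjusted p of at most 0.05. The 3 symbols of a row keep nearly the same spacing for well expressed genes and lie closer together for weak ones such as Eno2 and Pfkfb4. Scaling shifts all genes in the same direction, and Pfkfb3 (-0.53 as deposited) and Gapdh (0.28) stay filled on the same side of 0 under all 3.

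Other genes of the same pathways, taken from fixed lists, were read beside them. The counts below stand against 14.7% of all genes that rose and 14.4% that fell in DNP against Ctrl, and 18.1% and 30.7% in PF against DNP. Of 23 further glycolysis genes 12 were tested in DNP against Ctrl, where Minpp1 rose and Slc2a8 fell, and 13 in PF against DNP, where Bpgm and Slc2a6 rose and Tigar and Slc2a8 fell. Tigar, a phosphatase that breaks down fructose-2,6-bisphosphate, was 56.6, 55.2 and 56.3 FPKM in Ctrl, 53.9, 54.5 and 53.7 FPKM in DNP, and 28.9, 27.4 and 30.0 FPKM in PF samples. Its log2 fold change in PF against DNP was -0.89 ± 0.041 (limma adjusted p = 9.21e-07). The gene for an enzyme that removes the activator and that for the enzyme that makes it, Pfkfb3, were thus both lower. Slc2a8 (GLUT8) fell in both comparisons (-0.36 and -0.38). The list's median log2 fold change was 0.03 and -0.0015, beside -0.0081 and -0.04 for all genes.
Of 13 further pyruvate and lactate genes 10 were tested. With stimulation Pc, pyruvate carboxylase, rose (0.41, limma adjusted p = 0.00281) and Pdp1, Pdpr and Mpc2 fell. In PF against DNP Mpc1, Mpc2 and Bsg, the chaperone of the lactate exporters, rose (0.14, 0.22 and 0.26), and Pdp1 and Pdp2, phosphatases that switch pyruvate dehydrogenase on, fell (-0.25 and -0.60). Of 11 further pentose phosphate genes 8 were tested. Rpia rose in DNP (0.33), and Pgls and Prps1 rose in PF against DNP (0.32 and 0.22), with 0 falling in either. Rpe, of the arm that leads back to glycolysis, passed in no comparison, and Pgls is in the oxidative arm. The medians of the pyruvate and pentose lists were -0.03 and 0.06 in DNP against Ctrl and 0.04 and 0.04 in PF against DNP. Scaled to the mean of the sums, 0 of the further glycolysis genes rose and 4 fell in PF against DNP, while Tigar, Slc2a8, Pdp1, Pdp2, Mpc2, Bsg, Pgls and Prps1 kept their calls and Mpc1 lost its own. Pdp1 lost its call there under median ratios, and the fall of Mpc2 in DNP against Ctrl was lost when scaled to the mean of the sums.

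Of 15 listed regulators of glycolysis 11 were tested, with a median log2 fold change of -0.11 in DNP against Ctrl and -0.15 in PF against DNP, beside -0.0081 and -0.04 for all genes. In DNP against Ctrl Hif1a, Egln1 and Myc rose (0.12, 0.35 and 0.21) and Arnt, Vhl, Mlxip and Txnip fell. Txnip, an inhibitor of glucose uptake, was 410, 416 and 419 FPKM in Ctrl and 224, 229 and 221 FPKM in DNP samples (-0.88 ± 0.03, limma adjusted p = 1.04e-06). In PF against DNP 0 rose and 6 fell (54.5% of those tested, beside 30.7% of all genes), among them Hif1a, the oxygen-regulated activator of glycolytic genes, and Myc. Hif1a was 158, 156 and 156 FPKM in DNP and 115, 117 and 123 FPKM in PF samples (-0.41 ± 0.034, limma adjusted p = 2.29e-05), and Myc 49.3, 50.2 and 55.2 against 31.3, 28.3 and 28.9 FPKM (-0.79 ± 0.055, limma adjusted p = 7.57e-06). Scaled by median ratios the same 6 regulators fell and Egln1 and Mtor rose.
Of 14 other hypoxia-inducible genes, 12 were tested in DNP against Ctrl, where Ero1a rose and Bnip3l, Ddit4, Ndrg1, Kdm3a and Ankrd37 fell, Ddit4 by 1.10 on the log2 scale. In PF against DNP 11 were tested. Bnip3l, Ddit4 and Higd1a rose and Ndrg1, Kdm3a and Mxi1 fell, with list medians of -0.19 and 0.05, and Bnip3l lost its call when scaled to the mean of the sums. Whether the ACGTG letters described above bear on any of these changes was not tested.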

How the data were processed

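RNA from 9 RBL-2H3 samples (3 Ctrl, 3 DNP, 3 PF) was sequenced. Sequencing is described as BGISEQ-500 with SOAPnuke filtering in the paper's methods and as an Illumina protocol in the labels. The submitters' processing notes name HISAT2 2.0.4, Bowtie2 2.2.5, RSEM 1.2.12 and the rn6 build. The authors deposited 1 value per gene and sample, read here as FPKM although the heading names no unit, because values have decimals and sum to different totals. Each file lists 38490 genes in 1 of 5 orders, 20484 of them without values, and samples were joined by gene identifier. Groups follow the labels.

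The test was limma 3.58.1 in R 4.3.3 (lmFit, then eBayes with its trend option) on log2-transformed FPKM plus 1. Genes had to reach 1 FPKM in 3 or more of 6 samples, and p-values adjusted after Benjamini-Hochberg passed at 0.05. Values without counts allow no count model. Alternatives were a pseudocount of 0.1, no filter, all 3 groups in the fit, a replicate block, 2 scalings, no trend, each sample left out and a threshold of 0.01. The comparison with genes of at least 100 FPKM was added after seeing the data. The members and the 6 further lists were chosen with earlier results of these data known. All members may be named; from the further lists, the text names genes that passed with the largest changes, up to 5 a list and comparison, or that a sentence counts. From these lists, 3 genes are not reported here. Sequences are from RefSeq GRCr8 and the study's primer list.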

Additional observations from a re-analysis of the deposited data

How the results depend on the processing

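Over 13 alternative fits, 7 of the 12 members called in DNP against Ctrl kept their call and direction in every one, 9 of 14 in PF against DNP and 13 of 20 in PF against Ctrl, and no called member changed sign. At an adjusted p of at most 0.01, 1469 genes passed in DNP against Ctrl, where 0 members fell, and in PF against Ctrl 10 members rose and 2 fell. In DNP against Ctrl, 1 member fell with no filter and 1 to 3 with a sample left out (without DNP replicate 2 or 3 only 1, without Ctrl replicate 3 or DNP replicate 1 it was 2). Scaled by median ratios, 19 members rose in PF against DNP. Scaled to the mean of the sums, 6 rose and 7 fell there, and 10 rose and 9 fell in PF against Ctrl. The counts of all genes under both scalings are given in the Results beside those of the members. The summed level was then 9068 (median ratios) and 9518.1 FPKM (mean of sums) in DNP and 10856 and 10180 FPKM in PF samples. Gpi lost its call in PF against Ctrl without PF replicate 1 (limma adjusted p = 0.0575), and Pfkm without Ctrl replicate 1 or PF replicate 1 or 2 (limma adjusted p of 0.0508 to 0.0626). Both also lost it when scaled to the mean of the sums (limma adjusted p = 0.204 for Gpi and 0.188 for Pfkm). Members without a call passed in at least 1 alternative as follows: Pfkm, Pfkfb2, Pdhb and Slc16a1 in DNP against Ctrl, Slc2a1, Slc2a3, Hk1, Pfkl, Pfkp, Pgk1, Pgam1, Pdk2, Pdk3, Pdha1, Pdhb, Dlat and Pgd in PF against DNP, and Hk1, Pfkp, Pfkfb2, Eno2, Pdk2, Pdha1 and Slc16a1 in PF against Ctrl.

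Log2 fold changes that turned direction belonged to members without a call. Under median ratios these were Slc2a1 at 0.0161, Aldoc at 0.044 and Slc16a1 at 0.0524 in PF against DNP, and Slc2a3 at 0.0167 and Aldoa at 0.0567 in PF against Ctrl. Scaled to the mean of the sums they were Eno1 at 0.0082 in DNP against Ctrl, then Pfkl at -0.0152, Pfkm at -0.0782, Pfkp at -0.0444, Pfkfb4 at -0.005, Pgk1 at -0.0434, Pgam1 at -0.0145, Pdha1 at -0.0548, Dlat at -0.0014 and Pgd at -0.0038 in PF against DNP, and Pdhb at -0.0148 and Pgd at -0.0159 in PF against Ctrl. With a pseudocount of 0.1 Eno2 was 0.3956 in PF against DNP. With a sample left out, the ranges in DNP against Ctrl were -0.0842 to 0.0088 for Hk2, -0.024 to 0.0681 for Gapdh, -0.0251 to 0.0103 for Eno1, -0.7623 to 0.0767 for Eno2 (the highest without DNP replicate 3), -0.0031 to 0.1529 for Pdk1, -0.0026 to 0.0658 for Pdk2 and -0.0077 to 0.0867 for Pdk3. In PF against DNP they were -0.0075 to 0.0357 for Pfkm, -0.1288 to 0.1997 for Pfkfb4, -0.0609 to 0.0475 for Aldoc, -0.5762 to 0.0987 for Eno2 and -0.0495 to 0.0283 for Slc16a1, and in PF against Ctrl -0.1214 to 0.0216 for Slc2a3 and -0.0327 to 0.0226 for Aldoa. The cause was not tested. Depth in reads is unknown, so the precision of every value rests on 3 samples a group.

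Replicate numbers showed no strong pairing of the samples. The correlations of same-numbered deviations ran from -0.0822 to 0.189 and were not above 0.1 for every number. Whether same-numbered samples were handled together was not tested. With the number as a block, 2697, 4675 and 6009 genes passed in DNP against Ctrl, PF against DNP and PF against Ctrl, and of the members 7 rose and 3 fell, 10 rose and 4 fell, and 16 rose and 5 fell. The block ended the calls of Tkt and Pdha1 in DNP against Ctrl (limma adjusted p = 0.0533 and 0.0801) and of Hk2 in PF against DNP (0.0579). It added Slc2a3 in PF against DNP (0.0278) and Eno2 in PF against Ctrl (0.0466).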
